A study of Mus musculus with 4 samples.

Results

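C1q macrophages without Mrc1 and Arg1 were examined by single-cell RNA sequencing (scRNA-seq) of MC38 tumors. The cells were chosen by measured values, namely their counts of unique molecular identifiers (UMIs), which tag single captured RNA molecules. A barcode with more than 500 genes was taken when it held at least 5 UMIs of C1qa, C1qb and C1qc together and no UMI of Mrc1, Arg1, Cd3d, Cd3e, Cd3g or Hmga2. This gave 1009 of the 31143 barcodes with more than 500 genes, and 1009 of 3190 C1q macrophages, the cells that met the same conditions with Mrc1 and Arg1 allowed. Because these genes set the choice, the levels of C1q, Mrc1 and Arg1 below describe the cells and are not findings.

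C1q is the recognition protein of the classical complement pathway, built from the products of C1qa, C1qb and C1qc. Within tumors it is made mainly by macrophages, many of which develop from blood monocytes that enter the tissue, lose monocyte genes such as Ly6c2 and take up macrophage genes such as Apoe and Ms4a7. Mrc1 encodes the mannose receptor CD206 and Arg1 the arginine-degrading enzyme arginase 1, both widely used as markers of alternatively activated macrophages. Macrophages without them are often described by their antigen presentation through MHC class II and their response to interferons.

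The tumors were grown under the skin of C57BL/6 mice from MC38 cells, a mouse colon cancer line, which carried either wild-type (WT) RAC1 or a homozygous A159V substitution in this small GTPase. The substitution had been introduced at the endogenous gene with CRISPR-Cas9, and the edited line is a clone. The macrophages came from the host mice and were not edited, so genotype here refers to the tumor around them. Mice were treated with a PD1-blocking antibody (anti-PD1), which acts on an inhibitory receptor of T cells, or with control IgG of the same isotype. Each pairing of genotype and treatment, named WT IgG, WT anti-PD1, A159V IgG or A159V anti-PD1, had 1 library, and 4 values given without names follow this order. CD45+ and CD45− cells had been separated with beads and remixed with CD45+ cells in excess, so shares of all barcodes depend on that mixing. The number of mice behind a library is not given in the sources used here.

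With 1 library per group no test was possible, and differences between mice or between preparations cannot be told apart from differences between groups. All intervals are 95% intervals that cover counting error only. Levels are UMIs summed over the cells and scaled to counts per 1000000 UMIs of these cells (CPM). Log2 ratios were taken after adding 1 CPM. A gene was counted as higher or lower when the ratio was 2-fold or more and the gene reached 50 CPM in 1 of the 2 libraries. A gene under 50 CPM in 1 library was thus compared only through the library where it was higher, which bears on the list counts below.

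The libraries held from 6840 to 8879 barcodes with more than 500 genes, from 54402632 to 125227747 UMIs in total, and medians from 3662 to 4449.5 UMIs per barcode. The C1q macrophages without Mrc1 and Arg1 numbered 391 and 30 in the IgG and anti-PD1 libraries of WT, and 301 and 287 in those of A159V. Together they held 1809609, 171031, 957368 and 1280105 UMIs in that order. A library pair shared from 12 to 18 barcode sequences, and none of the shared barcodes was a member in more than 1 library. Xist, an RNA of female cells, was at 1016, 801, 967 and 1029.6 CPM, and both sexes were used in the study. The Y-linked genes Eif2s3y, Kdm5d and Uty had no UMI in the members of any library. Ddx3y, also Y-linked, was found in 1 cell, which was in A159V IgG. The WT anti-PD1 library stood apart, with 1231 fibroblasts by marker gate against 167 to 231 in the others, and 109 tumor cells against 892 to 1682. No value in a count table can show the A159V substitution itself, and Rac1 RNA in the members, which are host cells, was 406, 275, 461 and 470.3 CPM.

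The macrophage label was checked against genes that the choice had not used. Ms4a7, a membrane protein of mature macrophages, was at 942 CPM with IgG and 433 with anti-PD1 in WT tumors, and 940.1 and 623 in A159V tumors. Apoe, which carries lipids out of the cell, was at 1870.0, 1497, 3104 and 1055 CPM, and Cd72, a lectin-like receptor, at 695, 363, 587 and 594 CPM. In Ly6c2+ monocyte-like cells, which were 2473 cells with at least 3 Ly6c2 UMIs and no C1q UMI, Ms4a7 was at 76.8 to 139.95 CPM, Apoe at 453 to 916 and Cd72 at 35.4 to 83.1. A list of 8 macrophage genes, in contrast, did not set the members apart. It summed to 2897, 2139.96, 2794 and 2483 CPM in the members and 2544, 2920.02, 2470.6 and 2844 in the monocyte-like cells, so that the members were lower in both anti-PD1 libraries. Genes of monocytes were nonetheless present. A list of 6 monocyte genes summed to 3250 and 1158 CPM in the IgG and anti-PD1 libraries of WT, and 3326 and 3902 in those of A159V, against 6251 to 13494 CPM in the Ly6c2+ monocyte-like cells. The 3 single markers were thus higher in the members than in the monocyte-like cells of each library, while the 8-gene list was not.

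Markers of other cells were low, with the exception of fibroblast genes. Lists for T, B and dendritic cells each summed to less than 40 CPM in every library. The choice of cells had itself set Cd3d, Cd3e and Cd3g of the T cell list and Hmga2 of the tumor cell list to 0. Those lists therefore check the label only through their other genes. The natural killer cell list summed to 77.9, 105, 88.8 and 145 CPM, the neutrophil list to 69.1, 93.6, 227 and 90.6, and the endothelial list to 161, 146, 161 and 138. The tumor cell list, of which Hmga2, Krt8 and Krt18 were at 0, summed to 119, 0, 278 and 190 CPM. A list of 6 fibroblast genes summed to 670 CPM with IgG and 16015 with anti-PD1 in WT tumors, and 1115 and 1563 in A159V tumors. Most of this RNA lay in very few cells. In each library 2 or 3 members with at least 20 UMIs of Col1a1, Col3a1 and Dcn held from 93.1% to 96.7% of the UMIs of these genes. Without them the 3 genes were at 36.8, 459, 48.9 and 52.4 CPM. Members with no UMI of these genes were 342 of 391, 5 of 30, 279 of 301 and 230 of 287. Fibroblast RNA was thus spread over most members of WT anti-PD1, and leaving out the richest cells did not remove it. For the comparison that rests on the WT anti-PD1 library, values without these cells are given beside counts, list medians and the genes most affected.

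The members made up a small share of the C1q macrophages in WT anti-PD1 and a larger one in the other libraries. Between the IgG libraries the shares differed within counting error as deposited, and beyond it once cells were thinned to equal depth. Under IgG they were 391 of 802 C1q macrophages in the WT tumor (48.8%, interval 45.2% to 52.3%) and 301 of 668 in the A159V tumor (45.1%, 41.2% to 48.9%). Under anti-PD1 they were 30 of 878 in WT (3.42%, 2.32% to 4.84%) and 287 of 842 in A159V (34.1%, 30.9% to 37.4%). Relative to WT IgG the share in A159V IgG was 0.924-fold (0.828 to 1.03), an interval that includes no difference. Relative to the IgG library of the same genotype, anti-PD1 gave 0.756-fold in A159V (0.667 to 0.858) and 0.0701-fold in WT (0.0490 to 0.100).

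The other C1q macrophages were split unevenly between the libraries. Cells with both Mrc1 and Arg1 made up 14.3% and 70.2% in the IgG and anti-PD1 libraries of WT, and 18.3% and 32.2% in those of A159V. Cells with Mrc1 alone varied far less, at 25.8%, 21.9%, 27.5% and 20.7%. Cells with Arg1 alone made up 11.1%, 4.56%, 9.13% and 13.1%. Thus the libraries with fewer members held more cells that carried both genes. C1q macrophages as a whole were 1.17 times as frequent among all barcodes in WT anti-PD1 as in WT IgG (1.07 to 1.28), so the small number of members there went with no smaller number of C1q macrophages.

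**Figure D1:**
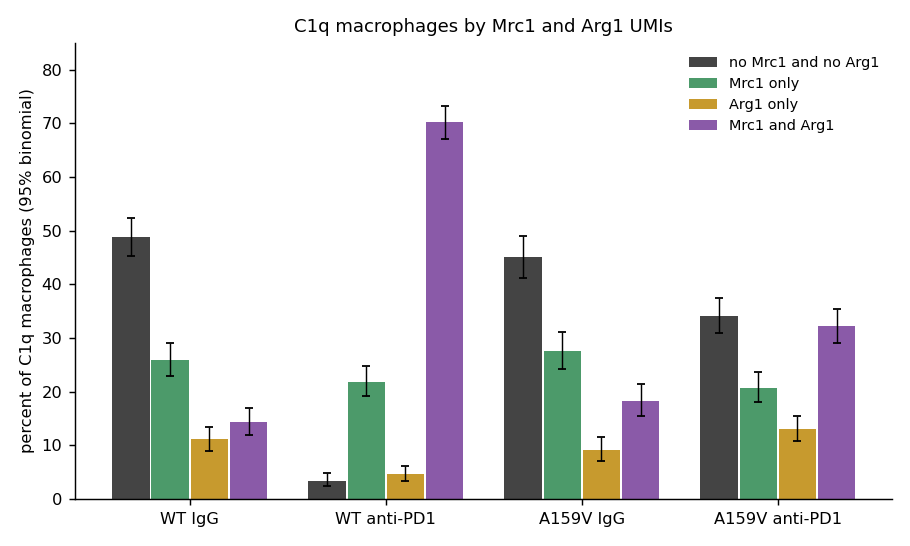
Share of C1q macrophages (y axis, percent) in each library that had no UMI of Mrc1 or Arg1, Mrc1 alone, Arg1 alone or both. Cells without either gene made up 48.8% and 45.1% in the WT and A159V IgG libraries and 3.42% and 34.1% with anti-PD1, and the error bars are exact binomial 95% intervals.

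A cell without a UMI of a gene may hold its RNA uncaptured, so the shares were followed across depth. In WT IgG the members made up 68.7% of C1q macrophages with 1000 to 2000 UMIs, 56.5% from 2000 to 4000, 42.5% from 4000 to 8000 and 31.8% at 8000 or more. The share was lower in deeper cells in both A159V libraries as well, from 57.6% to 31.8% in A159V IgG and from 53.4% to 25.3% in A159V anti-PD1. In WT anti-PD1 it was 3.13%, 5.46%, 2.91% and 2.17%, below every other library at each depth. After each cell was thinned to 2000 UMIs and at least 2 C1q UMIs were asked for, the members were 60.2%, 8.69%, 48.8% and 40.0% of C1q macrophages in the order above. The intervals of the IgG libraries, 56.7% to 63.6% in WT and 44.7% to 53.1% in A159V, did not overlap in thinned cells, and the share in A159V IgG was 0.812-fold of that in WT. Members in A159V IgG had a median of 2460 UMIs, against 3837 in WT IgG, 4430.5 in WT anti-PD1 and 3455 in A159V anti-PD1.

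**Figure D2:**
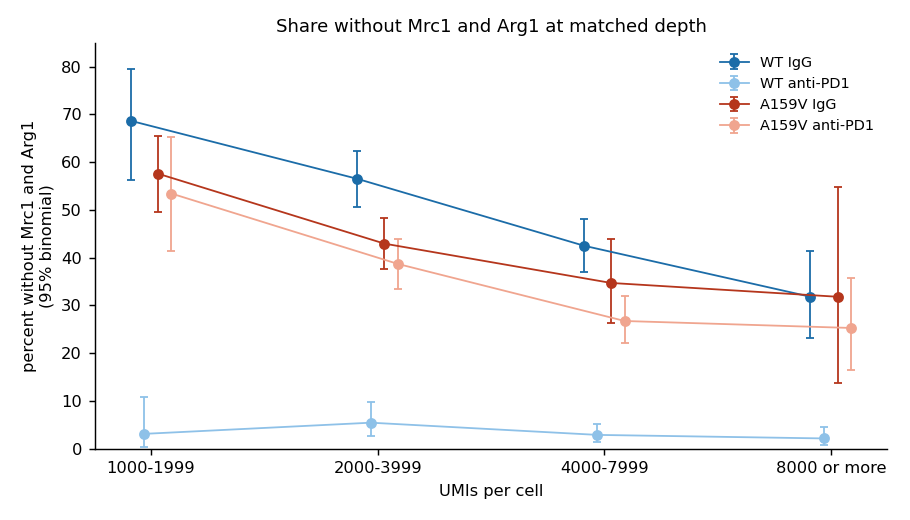
Members as a percent of C1q macrophages (y axis) by UMIs per cell (x axis, 4 ranges) in the 4 libraries, with exact binomial 95% intervals. The share was smaller in deeper cells of WT IgG, A159V IgG and A159V anti-PD1, and WT anti-PD1 lay between 2.17% and 5.46% throughout.

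RNA of Mrc1 and Arg1 was also found in cells that should lack it. In thinned T cells, the share with a UMI of either gene was 0.553% with IgG and 6.19% with anti-PD1 in WT tumors, and 2.33% and 4.02% in A159V tumors, at median depths of 3721 to 4148 UMIs before thinning. Without thinning it was 1.52%, 12.0%, 3.11% and 6.90%. Such stray RNA was highest where the members were fewest, and its part in the shares was not tested.

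Cells near the C1q minimum were fewer than cells well above it. The median member held 18 and 10 C1q UMIs in the IgG and anti-PD1 libraries of WT, and 11 and 13 in those of A159V. Members just inside the minimum, with 5 or 6 C1q UMIs, numbered 63, 9, 67 and 56, and their Apoe levels were 916, 1213, 2958 and 750.1 CPM. Cells just outside, with 3 or 4 C1q UMIs and the other conditions met, numbered 69, 21, 70 and 60, and their Apoe levels were 692, 1737, 1582 and 765 CPM. Apoe was thus higher just inside the minimum in both IgG libraries and lower there in both anti-PD1 libraries. From just outside to just inside, Ms4a7 was at 259 and 551 CPM in WT IgG and 398 and 671 in A159V IgG. With anti-PD1 it was at 411 and 167 CPM in WT and 313 and 194 in A159V. Cd72 was higher just inside except in A159V anti-PD1. Whether the minimum cut between separate groups was not tested.

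The members were not uniform, and Ly6c2, an antigen of classical monocytes that had no part in the choice, was found in part of them. After thinning to 2000 UMIs, a Ly6c2 UMI was found in 54.3% of members in WT IgG, in 43.4% and 46.9% with IgG and anti-PD1 in A159V tumors, and in 30.8% of 26 cells in WT anti-PD1. Thinned T cells, some of which express this gene, had a Ly6c2 UMI in 55.0%, 49.8%, 56.5% and 50.4%, so a share of cells with Ly6c2 is not read here as monocyte RNA. The split was made after the values had been seen, and the 8 cells with Ly6c2 in WT anti-PD1 were too few to describe. In the other libraries, Plac8, another gene of classical monocytes, was higher in cells with Ly6c2 by 3.19, 3.79 and 3.37 on the log2 scale in WT IgG, A159V IgG and A159V anti-PD1. Plac8 had a UMI in 59.9%, 50%, 54.0% and 61.6% of thinned members and in 59.3%, 44.2%, 71.8% and 59.6% of thinned T cells. Its share is thus not read as monocyte RNA either.

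Several antigen presentation and interferon genes were higher in cells with Ly6c2. The MHC class II chain H2-Aa was higher in cells with Ly6c2 by 1.03, 1.21 and 1.78 (log2), which in WT IgG was 2142 against 1048 CPM. Cd74, the invariant chain that chaperones MHC class II, was higher by 1.10, 1.86 and 1.56. Isg15, a ubiquitin-like protein induced by type I interferon, was higher by 1.12, 1.23 and 1.86, and Cxcl10, a chemokine for activated T cells, by 1.01, 1.23 and 1.30. These 4 genes were thus more than 2-fold higher in Ly6c2+ members of the 3 libraries. Cxcl9, which interferon gamma induces, was not, at 0.14 (−0.06 to 0.35) in WT IgG against 1.76 and 1.22 in the A159V libraries.

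Some genes of tissue macrophages ran the other way. Pf4, a chemokine of platelets and resident-type macrophages, was at −2.00, −1.92 and −2.19 (log2) in cells with Ly6c2 over cells without. Trem2, a lipid-sensing receptor, was at −1.05, −1.10 and −1.74, and Fabp5, a fatty acid carrier, at −0.76, −2.04 and −1.07. Gpnmb, a glycoprotein of lipid-laden macrophages, was higher in cells with Ly6c2 in WT IgG (0.78, 0.05 to 1.52) and lower in the A159V libraries (−2.05 and −2.09). Spp1 was at −0.04, −0.52 and 0.33. Apoe was within 2-fold in each library, at −0.30, −0.09 and −0.58. Cd72 was lower in cells with Ly6c2 in WT IgG (−1.02), with −0.52 and −0.93 in the A159V libraries. These values describe how the RNA of the members varied with Ly6c2, with no cut between separate groups.

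Within each library the members were next set beside the C1q macrophages that did carry Mrc1 or Arg1. Of 2940 genes compared in all 4 libraries, the genes that chose the cells left out, 569 were higher in the members of each library and 526 lower, of which 2 and 22 were so by 2-fold or more in each. The 2 were Ccl5, a chemokine for T cells, and Ly6i, a member of the Ly6 family. Ccl5 was at 843 CPM in members against 189 in the other C1q macrophages of WT IgG. It was at 608 against 159.5 in WT anti-PD1, 456 against 141 in A159V IgG and 562 against 132 in A159V anti-PD1. In log2 terms the Ccl5 differences were 2.15, 1.92, 1.69 and 2.09, and those of Ly6i 1.62, 1.80, 1.10 and 1.44.

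The 8 genes that came next were of mixed kinds. Among them were Grk3 (1.05, 1.66, 0.97 and 0.92), a receptor kinase, the transcription factor Pou2f2, the serotonin receptor Htr7, Gpr141 and the lectin-like receptor Klra2. Ifitm1, an interferon-induced membrane protein, was higher in the members by 1.56, 2.51, 0.90 and 0.98 (log2). Ly6c2 was higher by 0.88, 1.49, 1.38 and 1.36, and Isg15 by 0.70, 1.33, 0.90 and 0.77. Cxcl9, a chemokine induced by interferon gamma, was higher by 1.30, 1.99, 0.50 and 1.30. Over the monocyte list the median was 0.18, 0.35, 0.17 and 0.11. Over type I interferon genes it was 0.39, 0.66, 0.50 and 0.38, from 23, 16, 23 and 22 genes. Over the MHC class I list it was 0.34, 0.42, 0.32 and 0.31. For MHC class II the lists parted by library, with medians of 0.84 in WT IgG and 0.58 in A159V IgG but 0.05 in WT anti-PD1 and −0.12 in A159V anti-PD1. The advantage of the members in MHC class II was thus seen in the IgG libraries, and the difference between treatments has no replicate behind it.

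Genes lower in the members included chemokines and proteases of tissue macrophages. Apart from Mrc1 and Arg1 themselves, the chemokine Ccl6 stood at −2.65, −4.08, −2.66 and −3.22 (log2). The monocyte attractant Ccl8 was at −2.07, −3.59, −3.78 and −4.04, and Pf4 at −3.50, −2.18, −2.49 and −3.69. Mmp12, the macrophage elastase, was at −3.17, −7.02, −2.03 and −1.66. The folate receptor Folr2 and the fatty acid transporter Cd36 were lower by more than 2-fold in each library. Apoe was at −0.72, −1.63, −0.34 and −1.47. The medians of the lipid-associated list (−0.66, −0.99, −0.43 and −0.53), the chemokine list (−0.72, −0.67, −1.22 and −0.64) and the glycolysis and hypoxia list (−0.44, −0.64, −0.37 and −0.24) were below 0 in each library. Median depths of the members were below those of cells with both Mrc1 and Arg1 in each library, and the part of depth in these differences was not tested.

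**Figure D3:**
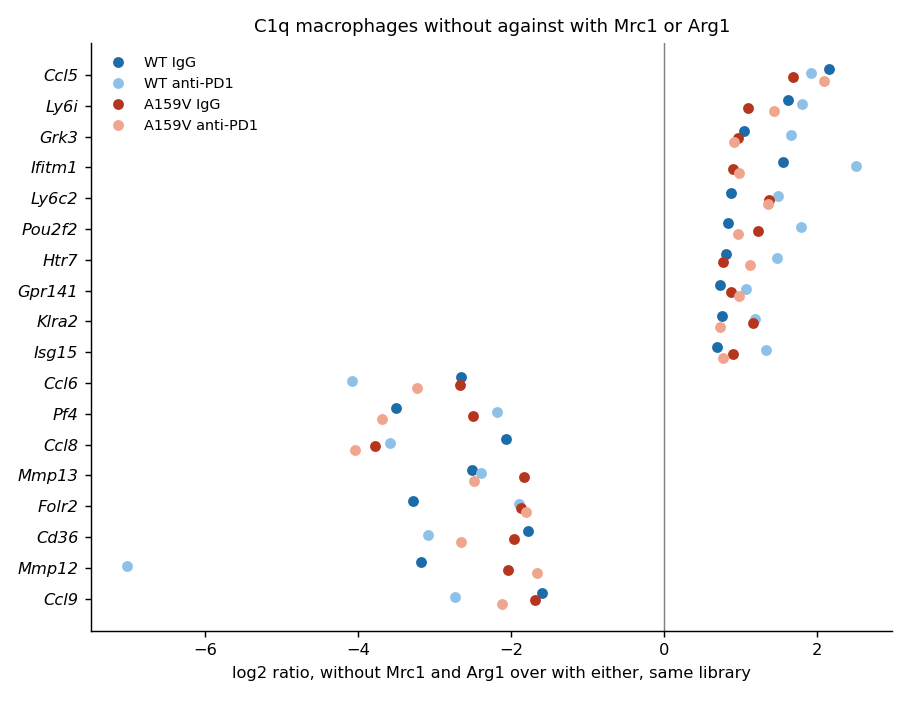
Log2 ratio (x axis) of the members over the C1q macrophages with Mrc1 or Arg1 of the same library for selected genes, 1 point per library. Ccl5 lay between 1.69 and 2.15 and Ccl8 between −4.04 and −2.07, with all 4 libraries on the same side of 0.

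The comparison of A159V IgG with WT IgG asked how the host's macrophages differed between tumors of the 2 genotypes without treatment. MHC class II genes and Cxcl9 were lower in the A159V tumor, while Fabp5, Gpnmb, Mmp12 and Pf4 were higher. Few genes differed by 2-fold or more. Of 3660 genes compared, 34 were higher (0.929%) and 38 lower (1.04%), with a median log2 ratio of −0.03.

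MHC class II was the list with the most members at 2-fold. Against a background of 1.04%, 5 of its 7 compared genes were lower by 2-fold or more, and 7 of 7 lay below 0, with a median log2 ratio of −1.52. MHC class II molecules present peptides from engulfed proteins to CD4+ T cells. The chain H2-Aa was at 1572 CPM in WT IgG and 549 in A159V IgG, a log2 ratio of −1.52 (−1.65 to −1.38). Its partner H2-Ab1 was at 1322 and 376 CPM (−1.81, −1.97 to −1.65), and the second beta chain H2-Eb1 at 1715 and 549 CPM (−1.64, −1.77 to −1.51). Cd74 was at 2622 and 877 CPM, a log2 ratio of −1.58 (−1.68 to −1.47). The peptide loading factors H2-DMb1 and H2-DMa stood at −1.27 and −0.78, and Ctss, the protease that trims the invariant chain, at −0.29.

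The same was seen per cell at equal depth. After thinning to 2000 UMIs, a UMI of H2-Aa was carried by 53.7% of members with IgG and 69.2% with anti-PD1 in WT tumors, and by 25.3% and 40.4% in A159V tumors. The background share in thinned T cells was 4.98%, 7.85%, 5.70% and 9.63%, well below the members in each library. Cells with and without Ly6c2 both showed the difference between the IgG libraries, with H2-Aa at −1.37 and −1.55 and H2-Ab1 at −1.71 and −1.92. Genes of MHC class I, which present peptides to CD8+ T cells, differed less. None of 14 reached 2-fold, 13 of 14 lay below 0, and the median was −0.26.

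Cxcl9 was the gene with the lowest ratio. It was at 437 CPM with IgG and 398 with anti-PD1 in WT tumors, and 36.6 and 345 in A159V tumors, so that A159V IgG stood alone far below the others. Its log2 ratio in A159V IgG over WT IgG was −3.54 (−4.02 to −3.07). In thinned cells, 16.5%, 30.8%, 5.05% and 18.8% of members had a Cxcl9 UMI, against 0.518% to 2.44% of T cells. Cxcl10, which binds the same receptor, did not follow it. The Cxcl10 level was 1637 CPM and 1006 in the IgG and anti-PD1 libraries of WT, and 1627 and 1248 in those of A159V, a log2 ratio of −0.01 (−0.10 to 0.08) between the IgG libraries.

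The promoters of H2-Aa, H2-Eb1, Cxcl9 and Cxcl10 are shown because MHC class II genes were lower together while the 2 chemokines differed from each other. The 250 bases before each start were taken from RefSeq on GRCm38.p6 and are written on the gene's strand. H2-Aa lies at chr17:34287824-34288073 on the minus strand and H2-Eb1 at chr17:34305617-34305866 on the plus strand. Cxcl9 lies at chr5:92328080-92328329 and Cxcl10 at chr5:92348890-92349139, both on the minus strand. Capitals mark motifs that were searched on both strands, namely the Y box CTGATTGG of MHC class II promoters, the interferon-response-like motif GAAANNGAA and the GAS motif TTCNNNGAA.
H2-Aa: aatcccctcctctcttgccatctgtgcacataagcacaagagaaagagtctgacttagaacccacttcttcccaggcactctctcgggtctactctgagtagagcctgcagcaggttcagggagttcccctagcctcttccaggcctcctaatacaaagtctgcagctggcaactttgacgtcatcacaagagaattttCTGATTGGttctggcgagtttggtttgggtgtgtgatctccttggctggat
H2-Eb1: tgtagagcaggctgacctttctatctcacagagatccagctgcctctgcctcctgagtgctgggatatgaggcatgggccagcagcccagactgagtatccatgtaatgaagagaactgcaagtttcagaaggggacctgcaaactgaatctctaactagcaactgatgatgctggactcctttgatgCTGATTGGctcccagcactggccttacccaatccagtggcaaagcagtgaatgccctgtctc
Cxcl9: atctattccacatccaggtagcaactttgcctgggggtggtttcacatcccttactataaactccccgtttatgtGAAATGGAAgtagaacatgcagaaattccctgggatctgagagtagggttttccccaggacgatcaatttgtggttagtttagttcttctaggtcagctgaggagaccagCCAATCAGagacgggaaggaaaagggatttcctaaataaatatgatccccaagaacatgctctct
Cxcl10: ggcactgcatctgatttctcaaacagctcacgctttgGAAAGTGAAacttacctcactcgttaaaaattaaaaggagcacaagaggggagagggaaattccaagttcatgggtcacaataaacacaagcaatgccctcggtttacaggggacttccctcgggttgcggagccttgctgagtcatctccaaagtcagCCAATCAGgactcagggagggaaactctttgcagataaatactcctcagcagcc

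The Y box lay 51 to 44 bases before the start of H2-Aa and 62 to 55 bases before that of H2-Eb1. The same letters stood on the other strand of both chemokine promoters, 65 to 58 bases before Cxcl9 and 54 to 47 before Cxcl10. The interferon-response-like motif lay 175 to 167 bases before Cxcl9 and 213 to 205 before Cxcl10, and the GAS letters were in none of the 4 windows. Of 27025 promoters of this length, 4.07% held the Y box letters, 7.16% the interferon-response-like motif and 7.18% the GAS motif. No motif overlapped another, and both chemokine windows held the same kinds of motif while their RNA differed. These matches are descriptions of sequence and carry no measurement of binding.

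Other interferon gamma genes were lower with smaller ratios. In a list of 17 compared genes, Cxcl9 and the GTPase Iigp1 (−1.17) were 2-fold lower against 1.04% of all genes. Of the 17, 15 lay below 0, and the median was −0.43. Cxcl9 was under 50 CPM in A159V IgG and was compared only through its level in WT IgG, so no count is read from this list. Iigp1 stayed at 2-fold under 8 of 12 other settings, and 1 cell of WT IgG held 20.2% of its UMIs there. Gbp2, a guanylate-binding protein, was at 272 CPM in WT IgG and 136 in A159V IgG, just under 2-fold (−0.996). The transcription factor Irf1 was at −0.51. None of 23 type I interferon genes reached 2-fold, and their median of −0.10 lay near the median of all genes. Isg15, for instance, was at 1888 and 1766 CPM. The differences were thus larger in MHC class II and Cxcl9 than in the other interferon lists.

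Several genes of lipid handling were higher in A159V IgG. In the lipid-associated list, 3 of 18 compared genes were 2-fold higher against 0.929% of all genes, 16 of 18 lay above 0, and the median was 0.41. Of the 3, Gpnmb was under 50 CPM in WT IgG and was compared only through its level in A159V IgG. Fabp5 was at 632 CPM with IgG and 509 with anti-PD1 in WT tumors, and 2078 and 1216 in A159V tumors, a log2 ratio of 1.72 (1.61 to 1.82) between the IgG libraries. Gpnmb, a glycoprotein of lipid-laden macrophages, was at 35.9, 40.9, 165 and 119 CPM, a log2 ratio of 2.17 (1.76 to 2.58). Ctsl, a lysosomal protease, was at 1.01 and Apoe at 0.73 (0.66 to 0.80). Both A159V libraries thus lay above both WT libraries for Fabp5 and Gpnmb. The Gpnmb ratio was 3.09 in members without Ly6c2 and 0.26 in members with it, and that of Fabp5 was 1.70 and 0.42.

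Secreted proteins were among the largest ratios. Mmp12 was at 63.5 and 23.4 CPM in the IgG and anti-PD1 libraries of WT, and 414 and 318 in those of A159V (2.68, 2.39 to 2.98). Pf4 was at 93.9, 398, 515 and 158.6 CPM (2.44, 2.19 to 2.69). Gdf15, a stress-induced cytokine, stood at 1.54 and Slpi, a protease inhibitor, at 1.51. Il1rl1, the receptor of interleukin 33, was at 11.6 and 181 CPM in the IgG libraries (3.85), from 21 cells with a UMI in A159V IgG, 1 of which held 31.8% of them. The neutrophil genes S100a9 (6.09) and S100a8 (5.04) rested on even fewer cells, with 59.0% and 52.1% of their UMIs in 1 cell. The neutrophil list summed to 227 CPM in A159V IgG against 69.1 in WT IgG, and the part of neutrophil RNA was not tested. Galntl6 (3.88), 50% of whose UMIs were in 1 cell, stood at 0.68 when predicted doublets were left out. Mmp12, Pf4, Fabp5, Gpnmb and Gdf15 stayed at 2-fold or more under each of 12 other settings.

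Genes lower in A159V IgG outside antigen presentation included regulators of growth and adhesion. Pmepa1, an inhibitor of TGF-beta signaling, was at 60.8 CPM in WT IgG and 8.36 in A159V IgG (−2.72). The growth factor Nrg1 was at 82.9 and 24.0 CPM (−1.75), the immediate early transcription factor Nr4a2 at 93.4 and 28.2 CPM (−1.69), and the adhesion molecule Cadm1 at 178 and 61.6 CPM (−1.51). Havcr2, which encodes the checkpoint receptor TIM-3, was at 176 and 83.6 CPM (−1.06). Cd274, the gene of the PD1 ligand PD-L1, was at 587 and 698 CPM (0.25), within 2-fold.

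Other lists held few genes at 2-fold in this comparison. Single members at 2-fold were F13a1 (1.02), a coagulation factor of monocytes, Cd38 (1.06), an ectoenzyme, and Fosb (−1.07), an immediate early gene. F13a1 and Cd38 were under 50 CPM in WT IgG and were compared only through their level in A159V IgG. Under 12 other settings F13a1 stayed at 2-fold in 7, and Cd38 and Fosb in 9 each. In the glycolysis and hypoxia list, 2 of 19 genes were higher, namely the lipid droplet protein Hilpda (1.18) and Ndrg1 (1.10), with a median of 0.35. The iron and heme list had a median of 0.52 with none of 7 at 2-fold. The ferritin chain Fth1 was at 10138 and 17851 CPM (0.82). Complement, macrophage identity, Fc receptor, phagocytosis, alternative activation and Rac GTPase lists had none at 2-fold, with medians between −0.28 and −0.08. Ly6c2 (−0.05) and Plac8 (0.09) were at near equal levels in the IgG libraries.

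**Figure D4:**
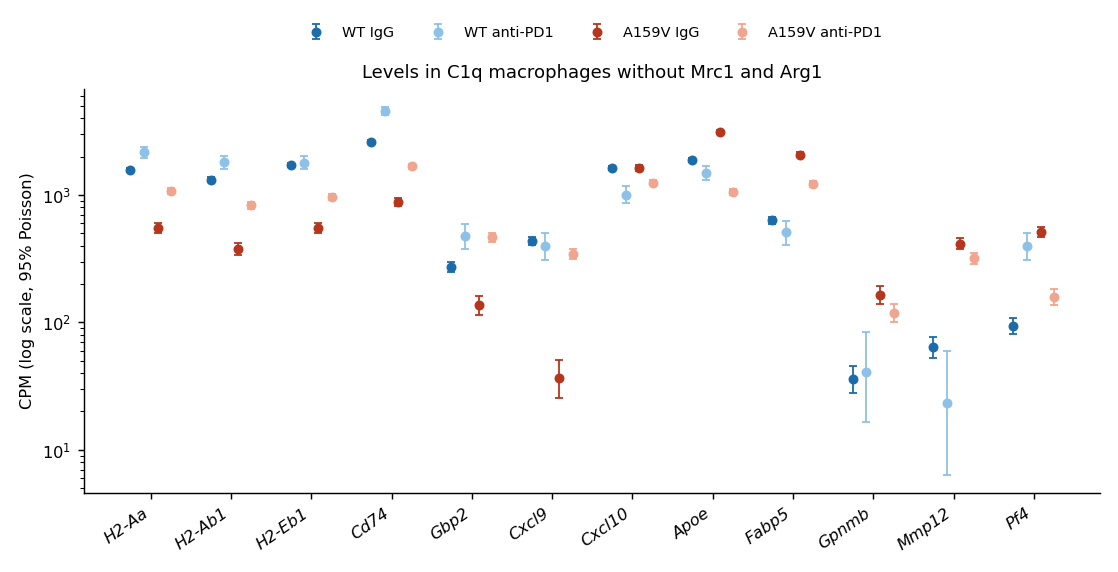
Level in CPM (y axis, log scale) of selected genes in the members of each library, with exact Poisson 95% intervals. H2-Aa, Cd74 and Cxcl9 were lowest in A159V IgG, at 549, 877 and 36.6 CPM, and Fabp5 and Gpnmb were highest there, at 2078 and 165 CPM.

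The same ratios were then taken in other cells of the IgG libraries. In C1q macrophages with Mrc1 or Arg1, H2-Aa was at −1.35, Cd74 at −1.31 and Cxcl9 at −2.74, all on the same side as in the members. Cxcl10 was at −0.87 there, a difference of 0.86 (0.73 to 0.99) from the members. In Ly6c2+ monocyte-like cells, H2-Aa was at −0.52, which differed from the members by −0.99 (−1.18 to −0.81), and Cxcl9 at −2.00. Pf4 was higher in both kinds of C1q macrophage (2.44 and 1.44) but not in the monocyte-like cells (−1.17). Lower MHC class II and Cxcl9 were therefore not particular to the members. Cxcl10 differed among the other classes. It was at 1299.99 CPM in WT IgG and 1031 in A159V IgG in cells with Mrc1 alone, at 1805 and 722 in cells with Arg1 alone and at 1289 and 478 in cells with both. In the monocyte-like cells it was at 3268 and 3441 CPM, near equal between the IgG libraries as it was in the members.

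The comparison of A159V anti-PD1 with A159V IgG asked how the members differed with treatment in the mutant tumor. Cxcl9, guanylate-binding proteins and MHC class II were higher with anti-PD1, and Apoe, Pf4 and Mertk were lower. Of 3676 genes compared, 54 were higher (1.47%) and 20 lower (0.544%), with a median of 0.01. This comparison shares the A159V IgG library with the one between genotypes, so a library at the low end for a gene there is at the low end here as well.

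Cxcl9 was the gene with the highest ratio in this comparison. From 36.6 CPM with IgG it stood at 345 CPM with anti-PD1 (3.20, 2.72 to 3.69), against 398 to 437 CPM in the WT libraries. In the interferon gamma list, 4 of 17 compared genes were 2-fold higher against 1.47% of all genes, and 14 of 17 lay above 0 with a median of 0.40. Of the 4, Cxcl9 and Gbp4 were under 50 CPM with IgG and were compared only through their level with anti-PD1. No count is therefore read from this list. Gbp2 was at 136 CPM with IgG and 466 with anti-PD1 (1.77, 1.501 to 2.04). Gbp4, of the same family, was at 1.13 and Iigp1 at 1.15. Cells with and without Ly6c2 both showed this for Cxcl9 (3.11 and 3.66) and Gbp2 (1.94 and 1.52).

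In MHC class II, 7 of 7 genes lay above 0 with a median of 0.90, and 1 reached 2-fold. H2-Ab1 was at 376 CPM with IgG and 832 with anti-PD1 (1.14, 0.97 to 1.32). H2-Aa was at 549 and 1069 CPM (0.96), H2-Eb1 at 549 and 967 CPM (0.81), and Cd74 at 877 and 1679.55 CPM (0.94). The levels with anti-PD1 remained below those of both WT libraries, where H2-Aa was at 1572 and 2169 CPM. H2-Aa differed more with anti-PD1 in the other C1q macrophages, at 2.21, than in the members, by −1.25 (−1.46 to −1.05).

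Type I interferon genes went the opposite way. Of 23 genes, 20 lay below 0 with a median of −0.40, and 1, Ifit3b (−1.21), was 2-fold lower. Its relative Ifit3 was at 470.0 and 245 CPM (−0.94), and Isg15 at 1766 and 1294 CPM (−0.45). Cxcl10 was at −0.38 (−0.48 to −0.28), while Cxcl9 was higher. The 2 interferon lists thus had medians on opposite sides of 0 in this comparison.

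Apoe was lower with anti-PD1, at 3104 CPM with IgG and 1055 with anti-PD1 (−1.56, −1.65 to −1.46). In thinned cells, 80.8% and 57.96% of members had an Apoe UMI. Mertk, a receptor for dying cells, was at 141 and 52.3 CPM (−1.41), and Pf4 at 515 and 158.6 CPM (−1.69). Nr1h3, which encodes the sterol sensor LXR alpha, was at 120.1 and 58.6 CPM (−1.02). In the C1q macrophages with Mrc1 or Arg1, Apoe was at −0.43, which differed from the members by −1.13, and Mertk was at −0.30. The lipid-associated list as a whole had 1 gene higher, the lipase Lpl (1.57), and 1 lower, Nr1h3, with a median of −0.25. Lpl was under 50 CPM with IgG and was compared only through its level with anti-PD1.

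Tgm2, a transglutaminase of alternatively activated macrophages, was at 200 CPM with IgG and 444 with anti-PD1 (1.15), and Top2a, a topoisomerase of dividing cells, at 57.4 and 139 CPM (1.26). Nos2, Fpr2, Mki67, Cdk1, Birc5 and Rrm2 were under 50 CPM with IgG and were compared only through their level with anti-PD1, so no count is read from them. Nos2, the inducible nitric oxide synthase, was at 28.2 and 93.7 CPM (1.70), the formyl peptide receptor Fpr2 at 34.5 and 71.1 CPM (1.02), and the proliferation marker Mki67 at 22.98 and 53.1 CPM (1.17). Cdk1, Birc5 and Rrm2, also genes of cell division, had ratios from 0.59 to 0.81. The checkpoint ligand list had none of 11 at 2-fold, and Cd274 stood at 0.20. The complement, monocyte, MHC class I, regulatory cytokine, Fc receptor, glycolysis and hypoxia, iron and heme, immediate early and Rac GTPase lists had none at 2-fold either, with medians between −0.13 and 0.22.

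Among the remaining genes, several that were low in A159V IgG were higher with anti-PD1. Nrg1 was at 24.0 CPM with IgG and 95.3 with anti-PD1 (1.94), and Cadm1 at 61.6 and 206 CPM (1.73). The transcription factor Sox5 was at 2.57 and the adhesion molecule Negr1 at 2.23. The lectin-like receptor Klrb1b was at 1.99, Ldlrad4 at 1.85, Bst1, an ectoenzyme, at 1.82 and Arhgef7, an exchange factor for Rac GTPases, at 1.73. All of these higher genes but Cadm1 were under 50 CPM with IgG and were compared only through their level with anti-PD1. The lower genes Galntl6 (−3.48), S100a9 (−3.46) and S100a8 (−2.82) rested on few cells of A159V IgG, as above. Ube2c (−1.27), a cell division gene, had 73.6% of its UMIs in 1 cell, and Galntl6, Sema3a (−2.03) and Ube2c lay above 0 when predicted doublets were left out. Syngr1 (−1.41) and Blnk (−1.29), an adaptor of antigen receptor signaling, were lower as well.

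The comparison of WT anti-PD1 with WT IgG rests on 30 cells. Type I interferon genes, monocyte genes and several CC chemokines were lower in them, MHC class II differed by less than 2-fold, and genes of fibroblasts were far higher. Of 4022 genes compared, 518 were higher (12.9%) and 395 lower (9.82%), with a median of 0.09. Both shares were several times those of the other comparisons, at far fewer UMIs. Without the 3 WT anti-PD1 members that held most fibroblast RNA, and their like in WT IgG, 466 genes were higher and 378 lower.

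Against a background of 9.82%, 15 of 23 type I interferon genes were 2-fold lower, and 21 of 23 lay below 0 with a median of −1.64. Several of them, such as Ifit3, Ifit3b and Isg20, were under 50 CPM with anti-PD1 and were compared only through their level with IgG. No count is therefore read from this list. Isg15 was at 1888 CPM with IgG and 474 with anti-PD1 in WT tumors, and 1766 and 1294 in A159V tumors, so WT anti-PD1 was the lowest of the 4. Ifit3 was at 513, 35.1, 470.0 and 245 CPM (−3.83, −4.96 to −2.71). Ifit3b had no UMI in WT anti-PD1 and was at least 7.06-fold lower, a bound from 3 counts in that library. With 4 cells left when UMIs of 5 further lineage genes were barred, the median of the list was 0.11, and without the members rich in fibroblast RNA it was −1.55. The C1q macrophages with Mrc1 or Arg1 also had less Isg15 in this library, at 188 CPM against 1164 in WT IgG.

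Monocyte genes and chemokines were lower as well. In the monocyte list 5 of 11 were 2-fold lower, with a median of −0.85. Among the 5, Chil3 had no UMI with anti-PD1 and was compared only through its level with IgG. Ly6c2 was at 1029.5 and 269 CPM (−1.93) and Plac8 at 1842 and 585 CPM (−1.65), and without the members rich in fibroblast RNA they were at −1.64 and −1.70. Of 13 chemokines, 5 were lower, led by the monocyte attractant Ccl2 at 1533 and 210.5 CPM (−2.86) and Ccl7 (−1.92), and 1 was higher, Pf4 (2.07). A single cell held 80.9% of the Pf4 UMIs of WT anti-PD1. The macrophage gene Ms4a7 (−1.12) and the Fc receptor Fcgr1 (−1.21) were lower too. Without the members rich in fibroblast RNA, Ccl2 was at −2.66, Ccl7 at −2.10, Pf4 at 2.42 and Fcgr1 at −1.02, while Ms4a7 was at −0.78 and no longer at 2-fold. The median of the monocyte list was then −1.21 and that of the chemokine list −0.12, from −0.47 with them.

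MHC class II and Cxcl9 showed no such differences. None of 7 MHC class II genes reached 2-fold and the median was 0.12, or 0.43 without the members rich in fibroblast RNA, with H2-Aa at 0.46, H2-Ab1 at 0.45, H2-Eb1 at 0.07 and Cd74 at 0.79. Cxcl9 was at −0.13 (−0.49 to 0.22). In the lipid-associated list 8 of 18 genes were higher against 12.9% of all genes, with a median of 0.68, among them Lpl (3.35) and Cd36 (1.73). Both are also genes of fibroblasts or fat cells, and fibroblast RNA in this library is given above. Lpl and Cd36 were under 50 CPM with IgG and were compared only through their level with anti-PD1. A single cell held 63.6% of the Cd36 UMIs. The cholesterol exporters Abca1 (1.65) and Abcg1 (1.05) and the lysosomal lipase Lipa (1.26) were 2-fold higher too. Without the members rich in fibroblast RNA the median of the list was 0.95, with Lpl at 3.19, Cd36 at 2.08, Abca1 at 1.77, Abcg1 at 1.23 and Lipa at 1.53.

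In the alternative activation list 4 of 9 genes were 2-fold higher against 12.9% of all genes, with a median of 0.95. Among them were the scavenger receptor Stab1 (1.06) and Pdcd1lg2 (1.53), the gene of the PD1 ligand PD-L2. Pdcd1lg2 was under 50 CPM with IgG and was compared only through its level with anti-PD1, so no count is read from this list. The phagocytosis list had 4 of 15 higher and a median of 0.31. The Fc receptor list had 2 of 6 lower and 1 higher, with a median of −0.88. In the complement list C3 (2.38) and C4b (2.81), which fibroblasts also make, were higher. C4b was likewise under 50 CPM with IgG and was compared only through its level with anti-PD1. The glycolysis and hypoxia list had 2 of 19 lower and a median of −0.40. Without the members rich in fibroblast RNA, C3 was at 1.32 and C4b at 0.62, the latter under 2-fold, and the complement median was −0.70, from −0.44 with them. Stab1 was then at 1.35 and Pdcd1lg2 at 1.78, and the medians were 1.28 for alternative activation, 0.28 for phagocytosis, −0.72 for Fc receptors and −0.11 for glycolysis and hypoxia. Counts of a few genes in such lists lay close to the background of this comparison, where more than 1 gene in 10 was 2-fold higher.

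The genes with the largest ratios upward were mainly genes of fibroblasts. Pi16 (7.66), a marker of adventitial fibroblasts, had 111 UMIs in WT anti-PD1 against 4 in WT IgG. Ogn (7.62), Clec3b, Efemp1, Dpt, Tnxb and Mmp2 followed, and Adamts5, Cd55 and Smpd3, at 0 in WT IgG, were at least 81.1, 77.6 and 70.5-fold higher. The Pi16 UMIs came from 4 cells, and without the members with 20 or more fibroblast UMIs its ratio was 2.48. Downward, besides Ifit3b, no UMI was seen of Hist1h2ap, Chil3, Pclaf, Ccdc58, Lipg or Vapb, which were at least 4.001, 3.56, 3.34, 3.06, 3.02 and 2.93-fold lower. Ifit1bl1 and Cx3cr1, the fractalkine receptor of monocytes, had 1 UMI each.

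**Figure D5:**
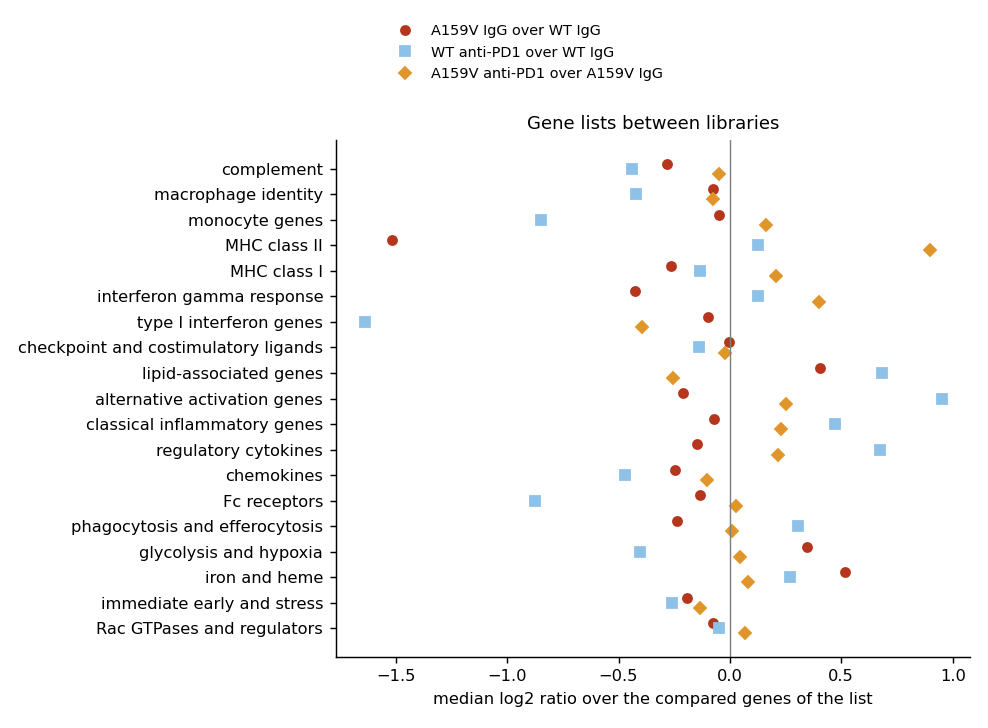
Median log2 ratio (x axis) of each gene list in the members for the 3 comparisons, each with 1 library per group. MHC class II stood at −1.52 between genotypes under IgG and 0.90 with anti-PD1 in the A159V tumor, and type I interferon genes at −1.64 with anti-PD1 in the WT tumor, which rests on 30 cells.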

How the data were processed

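Raw UMI counts per gene and barcode, called as cells and not corrected for background RNA, were taken as the authors deposited them, for 4 libraries with 32285 genes. Per the file headers the counts were made with Cell Ranger 7.2.0, whereas the submitters' processing notes name 5.0.1 and mm10. The members and the 21 gene lists (345 genes, 340 in the files) were chosen with earlier results of these data known.

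UMIs were summed over the members of a library and scaled to CPM, so deep cells weigh more, and no background RNA was subtracted. Genes compared reached 50 CPM in 1 of 2 libraries. Mitochondrial, ribosomal and other broad classes were left out, as were genes over 5 times higher in another gated class of at least 50 cells. Named genes were the 10 highest and 10 lowest log2 ratios of each comparison (pseudocount 1 CPM), the genes of the lists, and, within libraries, the 10 with the largest smallest difference in each direction. Cells were thinned to 2000 UMIs where shares with a UMI are given. Doublets were predicted by comparison with simulated doublets (0.8% per 1000 barcodes) and kept, since 17, 3, 15 and 19 members were marked; leaving them out was an alternative.

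Intervals are exact Poisson, Clopper-Pearson, Katz or delta-method at 95%. They cover counting error only, as do floors of 3 counts, which were 1.66, 17.5, 3.13 and 2.34 CPM. Only the delta-method intervals of ratios were checked on simulated data. Those counts were drawn independently for each gene, so the check does not cover UMIs that clump in single cells. The Ly6c2 split, the monocyte-like gate and leaving out members with 20 or more UMIs of Col1a1, Col3a1 and Dcn were chosen after seeing the data. Python 3.11.15, numpy 2.4.6, scipy 1.17.1, pandas 2.3.3, scikit-learn 1.9.0 and matplotlib 3.10.9 were used.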

Additional observations from a re-analysis of the deposited data

Results flagged for a closer look

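The log2 ratio of anti-PD1 over IgG lay on opposite sides of 0 in WT and A159V tumors for Pf4, Nr1h3 and Negr1, each 2-fold different in both. With 1 library per group the difference was not tested. These were not the only such genes. Top2a was at −2.58 in WT and 1.26 in A159V, Pclaf at −5.90 and 1.08, and Lipg at −5.76 and 1.18. In WT anti-PD1, Top2a was found in 2 cells, and Pclaf and Lipg in 0. Pf4 was at 2.07 in WT and −1.69 in A159V, a difference of 3.76 (3.30 to 4.23), and 80.9% of its UMIs in WT anti-PD1 were in 1 cell. Nr1h3 was at 1.001 and −1.02, a difference of 2.02 (1.34 to 2.71), with both ratios close to the 2-fold limit. Under 12 other settings the A159V ratio stayed at 2-fold in 8 for Nr1h3 and in 11 for Pf4. Negr1 was at −1.28 and 2.23, a difference of −3.52 (−4.56 to −2.47), and 77.8% of its UMIs in WT anti-PD1 were in 1 cell. The intervals cover counting error only, and the WT anti-PD1 values rest on 30 cells.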

How the results depend on the processing

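With 12 other settings for gene values and 8 for shares, 1 changed at a time, no fold of a share crossed 1, and of 100 gene values per setting from 87 to 100 kept their direction and from 72 to 100 stayed at 2-fold. No paired analysis was possible because each group had 1 library, and no library could be left out for the same reason. The thinned gate put the share at 0.812 times (A159V IgG over WT IgG) and 0.144 times (WT anti-PD1 over WT IgG), and taken over all barcodes it was 0.690 times for A159V IgG over WT IgG and 0.873 times for A159V anti-PD1 over A159V IgG. For A159V IgG over WT IgG, 66 genes were higher and 59 lower with at least 10 C1q UMIs, 108 and 88 at a level minimum of 20 CPM, and 19 higher at a pseudocount of 10 CPM. For WT anti-PD1 over WT IgG, 944 were higher and 862 lower at 20 CPM, and 1515 and 1179 when UMIs of 5 further lineage genes were barred, which left 4 members. For A159V anti-PD1 over A159V IgG, 94 were higher and 71 lower with at least 10 C1q UMIs, 132 and 99 at 20 CPM, 82 higher with the lineage genes barred, and 34 or 10 lower without predicted doublets or with the thinned gate. With those 4 members the WT anti-PD1 ratios changed sign for C1qb (0.10), C4b (−3.46), Fcgr1 (0.65), Pdcd1lg2 (−4.95), Isg15 (0.95), Irf7 (0.77), Mmp12 (0.092), Pf4 (−6.73), Pi16 (−0.74), Klrb1b (−6.05), Bst1 (−4.72) and the type I interferon median (0.11). They also did for Mmp12 (2.64) and Klrb1b (−0.14) with the thinned gate and Slpi (0.27) with cells weighed alike. For A159V anti-PD1, Galntl6 (0.37), Sema3a (0.70) and Ube2c (1.06) changed sign without predicted doublets, and Ube2c (0.49) with the thinned gate. The causes were not tested beyond the loss of cells that these settings bring.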
